A study of Mus musculus with 6 samples.

Results

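The genes described here make ribosomes. They are 40 genes of the nucleolus and of ribosome biogenesis, taken by symbol from a deposited table of 53677 genes, and all 40 were found in it. RNA came from ST-HSC (short-term hematopoietic stem cells), multipotent bone marrow cells of limited self-renewal, in mice of the C57BL/6J strain. Cells were gated as Lin-, ckit+, CD48+ and CD150-, and each of the 6 libraries was made from poly(A) RNA by SMART-Seq v4 and Nextera XT. The wild-type group (WT, 3 libraries) has the genotype label dnTCF4-/-. The other group (dnTCF4, 3 libraries) has the label dnTCF4+/+ and carries dnTCF4, a dominant-negative version of TCF4, the DNA-binding partner of β-catenin in Wnt signalling. Not given in the sources used here are the age of the mice, the promoter that drives dnTCF4 and the cells in which it acts. The series text speaks of 3 mice a genotype, so a library was taken as 1 mouse. The question asked of these genes is how their transcripts compare between ST-HSC with and without dnTCF4.

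Ribosomes are assembled in the nucleolus. RNA polymerase I transcribes a long precursor RNA, small nucleolar RNAs (snoRNAs) guide its chemical modification, and a large set of assembly factors, helicases and GTPases cut, fold and export it as the small and the large subunit. Blood progenitors that enter the cell cycle are known to raise this machinery, the transcription factor MYC is a known activator of many of its genes, and inherited defects of ribosome biogenesis are known causes of bone marrow failure.

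None of these genes passed the test for a difference between the genotypes. By the limma test over the 11326 genes whose mean reached 1 RPKM (reads per kilobase of gene, scaled to the library's total of counted reads), 0 of the 40 genes changed at a Benjamini-Hochberg adjusted p under 0.05, where 0.300% of all tested genes did (34 genes). At an unadjusted p under 0.05 the count was again 0 of 40, against 9.62% of all tested genes, and in the fit with the replicate number as a block 0 of 40 were called, against 0.433%. With voom on recovered reads, 34 of the 40 could be tested. It called 0 of them, against 0.140% of its 10004 genes, and 0 had an unadjusted p under 0.05, against 9.37%. The 3 values of dnTCF4 overlapped those of WT for every one of the 40. Among all tested genes, 15.4% had dnTCF4 values wholly above WT and 2.26% wholly below. All 40 genes passed the filter on low values, with mean levels from 2.04 RPKM (Wdr74) to 728 RPKM (Nop10).

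The log2 fold change, dnTCF4 minus WT on the log2(RPKM + 1) scale, ran from -0.84 for Nop56 to 0.33 for Npm1. It was above 0 for 17 and below 0 for 23 of the 40 genes, with a median of -0.03. Over all tested genes the median was 0.14 and 68.5% were above 0. The 95% confidence interval lay between -1 and 1, the size of a 2-fold change of RPKM + 1, for 34 of the 40 genes. The remaining 6 genes, Nop56, Nhp2, Ebna1bp2, Tsr1, Nop14 and Nop2, had wider intervals and differed most between libraries. At a few RPKM the added 1 shrinks the log2 fold change. With a pseudocount of 0.1 it was -0.46 instead of -0.33 for Rrp12 and -0.33 instead of -0.25 for Rrp9. For such genes, Wdr74 among them, an interval between -1 and 1 can still hold a 2-fold change of RPKM. The sign of small differences depends on the scaling: after division by median ratios, which moves the median of all genes to -0.05, 4 of the 40 genes were above 0, against 41.4% of all genes, and the median of the 40 was -0.23. Each median thus lay below that of all genes by a similar amount, and no test was made of that gap.

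**Figure D1:**
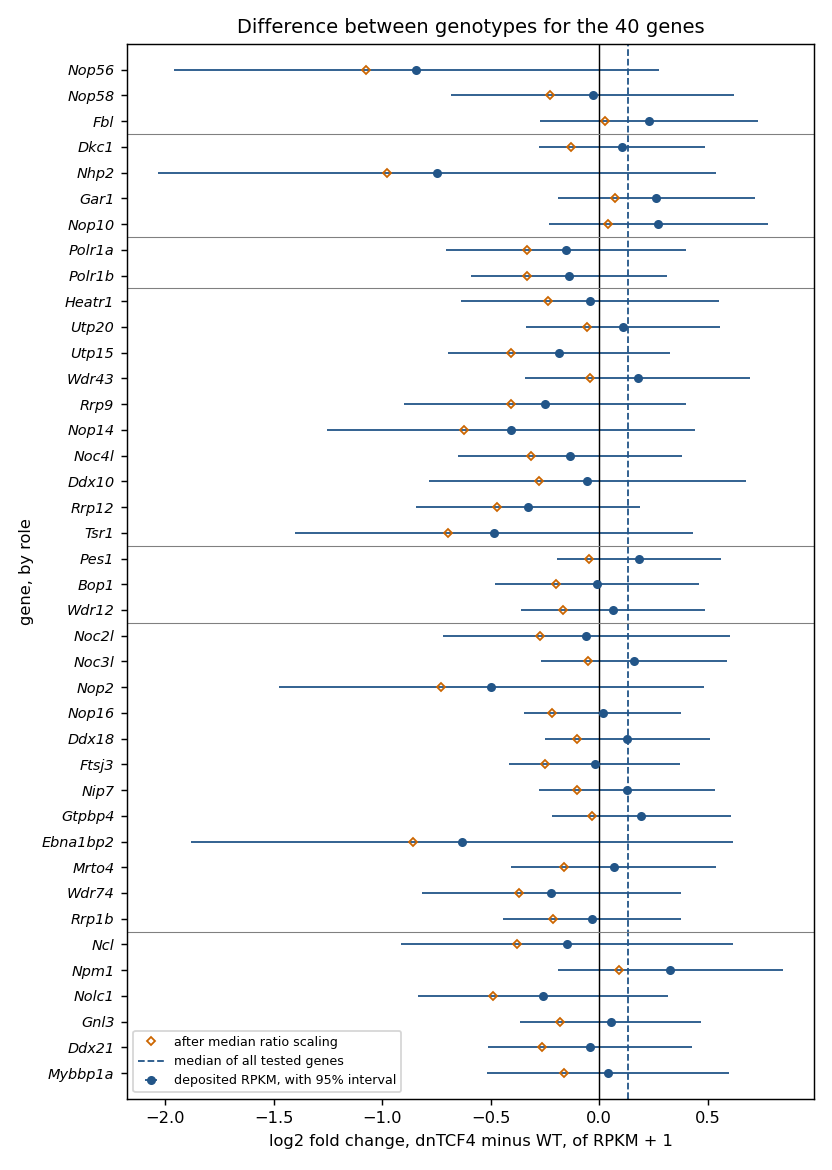
Log2 fold change of RPKM + 1 (dnTCF4 minus WT, horizontal axis) of the 40 genes, ordered by role from top to bottom. Filled points with bars are the deposited values with their 95% confidence interval (n = 3 libraries a genotype), open diamonds the values after median ratio scaling, and the dashed line is the median of all tested genes, 0.14. All 40 bars cross 0, and the widest belong to Nop56, Nhp2 and Ebna1bp2.

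Some facts of the libraries bear on these values. Depth recovered from the RPKM steps was 57400000 to 110900000 counted reads in dnTCF4 and 61800000 to 67700000 in WT. Immunoglobulin genes took 7.22% to 14.8% of recovered reads in WT and 0.732% to 1.55% in dnTCF4 (25.5% to 44.1% and 3.27% to 6.33% of summed RPKM). RPKM are relative to all counted reads, so this share lowers the other values in WT. Of the gate, Kit was at 35.5 to 97.1 RPKM in the 6 libraries, and Slamf1, which encodes CD150, at 0.744 to 1.18. Cd48 was at 813 to 994 RPKM in WT and 999.8 to 1415 in dnTCF4, without overlap. Of 10 B and plasma cell markers, 9 had a lower mean in dnTCF4, and their summed level was 2728 to 8001 RPKM in WT and 402 to 798 in dnTCF4. Of 11 mature neutrophil markers, 10 had a higher mean in dnTCF4, with summed levels of 621 to 3128 and 3077.5 to 7611 RPKM, and 9 of the 11 were highest in dnTCF4 replicate 3. Of 8 erythroblast markers, 6 had a higher mean in dnTCF4, and their sum of 637 to 686 RPKM in WT and 993 to 1231 in dnTCF4 was mostly Car2 (616 to 669 and 923 to 1140), with Hba-a1 and Alas2 under 1 RPKM in every library. The sums of progenitor, monocyte and T and NK cell markers overlapped, and the last was mostly Nkg7 (743 to 1221.5 RPKM). By gene, 4 of 8 monocyte and macrophage markers and 4 of 7 T and NK cell markers had a higher mean in dnTCF4. Values lay wholly above WT for 3 of these 8 (Ccr2, Adgre1 and Cd68) and 1 of these 7 (Klrb1c). The same held for 4 of the 8 erythroblast and 1 of the 11 mature neutrophil markers. Values lay wholly below WT for 6 of the 10 B and plasma cell markers and for 0 in the other lists. Over all tested genes 15.4% lay wholly above and 2.26% wholly below. None of the markers was at 0 in every library. Fewer cells of a type and less RNA per cell cannot be told apart in such bulk samples, and the part of these markers in the values below was not tested.

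The box C/D proteins sit on the snoRNAs that guide methylation of ribosomal RNA. Some of their own genes, and others of the 40, also carry snoRNAs inside them. Of the 40 genes, 7 hold 21 annotated snoRNAs on their own strand in GENCODE M21 (GRCm38). The sequences shown here are 4 of these guests, chosen to show both classes and both outcomes in the table. Capitals mark box C (TGATGA that starts within the first 15 bases) and box D (CTGA that starts within the last 15) in the first 3, and in the last the ACA triplet that lies 3 bases from the end of a box H/ACA snoRNA. Letters are DNA, 5′ to 3′ on the strand of the snoRNA. They come from Nop56 on chromosome 2 (chr2:130275506-130275573, plus strand), Ncl on chromosome 1 (chr1:86356261-86356330, minus strand), Gnl3 on chromosome 14 (chr14:31014287-31014366, minus strand) and Ncl again (chr1:86351169-86351301, minus strand).
Snord110: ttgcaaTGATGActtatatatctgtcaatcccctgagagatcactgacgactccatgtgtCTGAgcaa
Snord82: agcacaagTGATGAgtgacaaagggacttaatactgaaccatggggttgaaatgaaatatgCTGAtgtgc
Snord69: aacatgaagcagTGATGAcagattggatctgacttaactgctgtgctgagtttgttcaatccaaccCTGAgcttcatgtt
Snora75: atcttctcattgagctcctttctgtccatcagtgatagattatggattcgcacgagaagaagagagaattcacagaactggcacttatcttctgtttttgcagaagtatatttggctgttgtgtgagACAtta

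Both boxes were found by these letters in 8 of the 21. The deposited values of the guests split by position. The 11 snoRNAs that lie wholly in introns of their host were above 0 in some library, such as Snord110 at 0.700 to 2.52 RPKM and Snord82 at 0 to 0.906. The 10 that overlap an annotated exon of the host, Snord69 and Snora75 among them, were listed at 0 in all 6 libraries. How reads that fall on more than 1 gene were treated is not given in the sources used here, so a value of 0 for these 10 says nothing of their abundance. Whether the reads on the 11 intronic ones come from the snoRNA or from unspliced RNA of its host was not tested. The hosts are Nop56, Nop58, Dkc1, Wdr43, Tsr1, Ncl and Gnl3. Other overlaps bear on the hosts and their neighbours: exons of Srr cover 32.3% of the exon length of Tsr1, and exons of Samd11 cover 20.9% of that of Noc2l, both on the opposite strand, which this chemistry does not tell apart.

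In the box C/D complex, Nop56 and Nop58 form the paired scaffold and Fbl (fibrillarin) is the methyltransferase. Nop56 (GRCm38 chromosome 2, 130274430 to 130279313) was at 90.8, 197 and 114 RPKM across WT replicates 1, 2 and 3, in that order here and below, against 104, 97.8 and 34.1 across the same numbers of dnTCF4. WT replicate 2 was the highest library and dnTCF4 replicate 3 the lowest, while the other 4 lay close together and overlapped between genotypes. The means were 134 ± 55.7 and 78.6 ± 38.7 RPKM (SD, n = 3 each), with a log2 fold change of -0.84 (SE 0.48, 95% interval -1.96 to 0.28, limma adjusted p = 0.62). Leaving out dnTCF4 replicate 3 gave -0.33 for Nop56. Nop58 was far lower per length, at 3.90, 8.94 and 6.15 RPKM across WT and 5.93, 6.81 and 5.05 across dnTCF4, a log2 fold change of -0.03 (SE 0.28, limma adjusted p = 0.97). Its gene model has a union exon length of 10758 bases, by which its RPKM are divided. Fbl was at 4.58, 7.47 and 6.92 RPKM across WT and 7.32, 6.71 and 8.43 across dnTCF4, with only WT replicate 1 standing low (log2 fold change 0.23, SE 0.21, limma adjusted p = 0.72).

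The paired scaffold proteins are needed side by side, so their transcripts can be set against each other inside each library, where scaling cancels. Nop56 over Nop58 was 23.3, 22.0 and 18.6 in WT and 17.5, 14.4 and 6.75 in dnTCF4 (21.3 ± 2.44 and 12.9 ± 5.53, SD, n = 3 each). All 3 ratios of dnTCF4 lay below those of WT. Nop56 over Fbl, which shares the Nop56 values, was 19.8, 26.4 and 16.5 in WT and 14.2, 14.6 and 4.04 in dnTCF4, again without overlap. These were 2 of 10 ratios looked at, all chosen after the values of the genes were seen, and the other 8 overlapped between the genotypes. No test was made of them.

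The box H/ACA complex guides pseudouridylation and is also part of telomerase. Dkc1 (dyskerin), its pseudouridine synthase (GRCm38 chromosome X, 75095854 to 75109777), was among the most even genes, at 161, 167 and 169.6 RPKM across WT and 159, 179 and 200.01 across dnTCF4. The means of 166 ± 4.29 and 179 ± 20.5 RPKM (SD, n = 3 each) gave a log2 fold change of 0.11 (SE 0.16, 95% interval -0.28 to 0.49, limma adjusted p = 0.79). Nop10, the smallest core protein, was the most abundant of the 40 transcripts per length, at 574, 659 and 729.9 RPKM across WT and 737, 649 and 1021 across dnTCF4. Its dnTCF4 replicate 3 stood above the rest, and its log2 fold change was 0.27 (SE 0.22, limma adjusted p = 0.70), or 0.09 without that library. Gar1, another core protein, was at 3.52, 4.25 and 4.79 RPKM across WT and 4.996, 4.41 and 6.33 across dnTCF4. Within same-numbered pairs it was always higher in dnTCF4, and its log2 fold change was 0.26 (SE 0.19, limma adjusted p = 0.69).

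Nhp2, the remaining core protein of box H/ACA (GRCm38 chromosome 11, 51619735 to 51623714), did not follow its partners across the libraries. It was at 80.8, 286 and 134 RPKM across WT and 136, 106 and 45.0 across dnTCF4, so its highest library held 6.36 times its lowest, the widest range of the 40 genes. The log2 fold change was -0.75 (SE 0.55, 95% interval -2.03 to 0.54, limma adjusted p = 0.69), and -0.28 without dnTCF4 replicate 3. Set over Dkc1 in the same library, Nhp2 was 0.501, 1.71 and 0.791 in WT and 0.852, 0.594 and 0.225 in dnTCF4. Dkc1, Gar1 and Nop10 had their highest value in dnTCF4 replicate 3, the library in which Nhp2 was lowest.

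**Figure D2:**
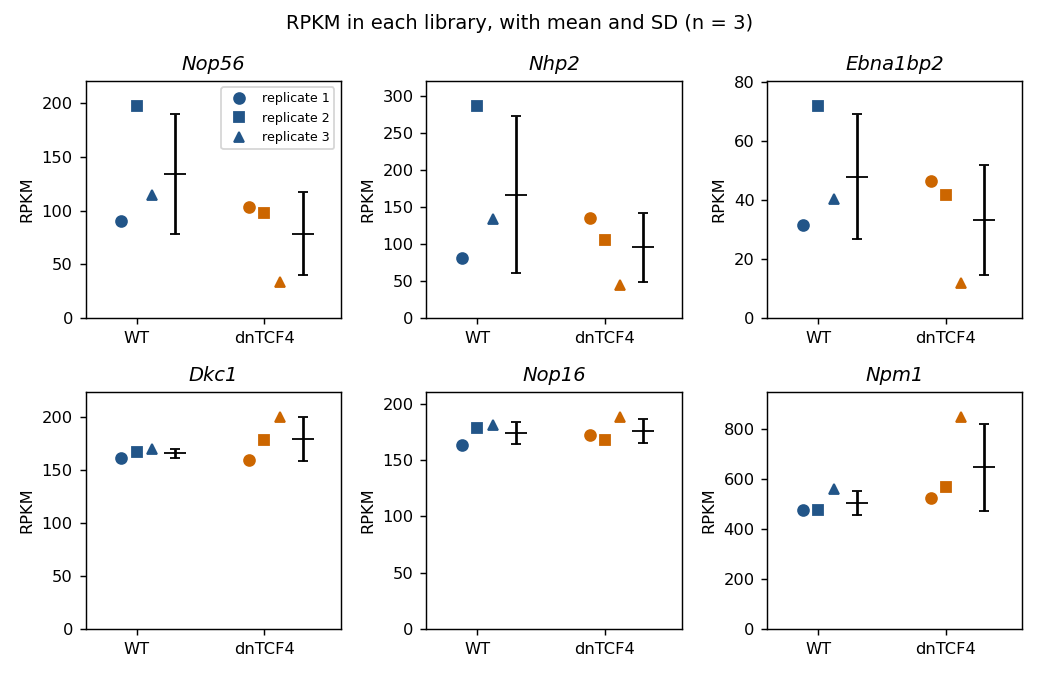
RPKM (vertical axes, from 0) of 6 genes in each WT and dnTCF4 library, with symbols for replicates 1, 2 and 3 and with mean and SD (n = 3) as black bars. Nop56, Nhp2 and Ebna1bp2 are highest in WT replicate 2 and lowest in dnTCF4 replicate 3, whereas Dkc1, Nop16 and Npm1 are highest in dnTCF4 replicate 3.

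RNA polymerase I is represented by its largest subunits. Polr1a, the largest, was at 3.20, 4.83 and 4.16 RPKM across WT and 3.22, 4.95 and 2.67 across dnTCF4, a log2 fold change of -0.15 (SE 0.24, limma adjusted p = 0.79). Polr1b was at 4.30, 5.80 and 6.18 RPKM across WT and 4.27, 5.54 and 4.63 across dnTCF4, a log2 fold change of -0.14 (SE 0.19, limma adjusted p = 0.78). Polr1b was the 1 gene of the 40 that was lower in dnTCF4 in all 3 pairs of same-numbered libraries. In all 3 pairs 4 of the 40 were higher (Gar1, Wdr43, Nip7 and Npm1). Such pairs were not counted over all tested genes.

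Factors of the small subunit pathway gave 2 genes above and 8 below 0, with log2 fold changes from -0.48 (Tsr1) to 0.18 (Wdr43). Tsr1, which acts late in small subunit maturation, was at 11.0, 21.4 and 14.3 RPKM across WT and 12.7, 15.7 and 5.56 across dnTCF4 (SE 0.39, limma adjusted p = 0.71). Nop14, a component of the small subunit processome, was at 15.1, 29.1 and 19.1 RPKM across WT and 18.5, 20.7 and 8.91 across dnTCF4, a log2 fold change of -0.41 (SE 0.36, limma adjusted p = 0.72). Both were highest in WT replicate 2 and lowest in dnTCF4 replicate 3, and without the latter their log2 fold changes were -0.08 and -0.05. Rrp12, an export factor of pre-ribosomal particles, was at 1.59, 3.09 and 2.55 RPKM across WT and 1.80, 2.01 and 1.25 across dnTCF4, a log2 fold change of -0.33 (SE 0.22, limma adjusted p = 0.67). Rrp9, a protein of the U3 snoRNP, was at 1.86, 4.25 and 3.10 RPKM across WT and 2.65, 2.94 and 1.55 across dnTCF4, a log2 fold change of -0.25 (SE 0.28, limma adjusted p = 0.74).

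The other small subunit factors were closer to 0. Utp20 and Wdr43 had log2 fold changes of 0.11 and 0.18. Heatr1, Ddx10, Noc4l and Utp15 had -0.04, -0.05, -0.14 and -0.18. Utp15, a subunit of the t-UTP complex that links transcription to processing, was even in WT (23.0 to 24.6 RPKM) and spread in dnTCF4 (16.4 to 27.7).

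The PeBoW complex of Pes1, Bop1 and Wdr12 is needed for large subunit maturation. Pes1 was at 90.4, 84.5 and 90.4 RPKM across WT and 90.4, 107 and 105 across dnTCF4, a log2 fold change of 0.18 (SE 0.16, limma adjusted p = 0.71). Wdr12 was at 30.9, 35.4 and 36.6 RPKM across WT and 31.9, 34.3 and 41.8 across dnTCF4, a log2 fold change of 0.06 (SE 0.18, limma adjusted p = 0.88). Bop1 was at 3.18, 4.98 and 5.03 RPKM across WT and 4.11, 4.62 and 4.14 across dnTCF4, a log2 fold change of -0.01 (SE 0.20, limma adjusted p = 0.98). The 3 partners thus differed in level per length, with Pes1 highest and Bop1 lowest in all 6 libraries, and none stood apart by genotype.

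Among 12 other factors of the large subunit, 6 were above and 6 below 0. Ebna1bp2, a nucleolar assembly factor (GRCm38 chromosome 4, 118620799 to 118627776), was at 31.6, 71.7 and 40.5 RPKM across WT and 46.4, 41.7 and 12.1 across dnTCF4. The log2 fold change of -0.63 (SE 0.53, 95% interval -1.88 to 0.62, limma adjusted p = 0.71) was -0.04 without dnTCF4 replicate 3. Nop2, a methyltransferase of ribosomal RNA, was at 97.6, 97.6 and 90.8 RPKM across WT and 94.6, 99.7 and 32.0 across dnTCF4. Its 5 other libraries lay within 10 RPKM of each other, so dnTCF4 replicate 3 alone set the log2 fold change of -0.50 (SE 0.42, limma adjusted p = 0.71), which was 0.03 without it. Gtpbp4, a GTPase of early large subunit particles, was at 26.9, 24.5 and 26.3 RPKM across WT and 26.0, 29.4 and 34.5 across dnTCF4, a log2 fold change of 0.19 (SE 0.18, limma adjusted p = 0.72).

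Noc2l and Noc3l work on the large subunit and Noc4l on the small one. Noc3l was at 9.92, 8.81 and 9.99 RPKM across WT and 8.99, 12.4 and 11.3 across dnTCF4, a log2 fold change of 0.16 (SE 0.18, limma adjusted p = 0.75). Noc2l was at 7.94, 8.69 and 13.4 RPKM across WT and 9.10, 6.83 and 12.9 across dnTCF4, which makes replicate 3 the highest library of each genotype. Noc4l was at 2.76, 4.53 and 5.11 RPKM across WT and 3.94, 3.36 and 3.46 across dnTCF4. Noc2l over Noc3l ranged from 0.552 to 1.34 over the 6 libraries and Noc4l over Noc3l from 0.271 to 0.514, both with overlap between the genotypes.

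The most even gene of the 40 was Nop16, of the large subunit, followed by Dkc1. Nop16 was at 163, 178 and 180.9 RPKM across WT and 172, 168 and 188 across dnTCF4, with means of 174 ± 9.45 and 176 ± 10.7 (SD, n = 3 each) and a log2 fold change of 0.02 (SE 0.15, 95% interval -0.35 to 0.38). The RNA helicase Ddx18, the methyltransferase Ftsj3 and Nip7 had log2 fold changes of 0.13, -0.02 and 0.13, and their highest library held 1.26, 1.27 and 1.33 times their lowest. Mrto4, Rrp1b and Wdr74 had log2 fold changes of 0.07, -0.03 and -0.22.

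The multifunctional nucleolar proteins include the histone and ribosome chaperone Npm1 (nucleophosmin), which is often mutated in acute myeloid leukemia. Npm1 (GRCm38 chromosome 11, 33152287 to 33163206) was at 475, 476 and 560.2 RPKM across WT and 525, 566 and 846 across dnTCF4. Within same-numbered pairs dnTCF4 was always the higher, but dnTCF4 replicate 1 lay below WT replicate 3. The means of 504 ± 48.9 and 646 ± 175 RPKM (SD, n = 3 each) gave a log2 fold change of 0.33 (SE 0.22, 95% interval -0.19 to 0.85, limma adjusted p = 0.68). It was 0.12 without dnTCF4 replicate 3 and 0.09 after median ratio scaling.

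Ncl (nucleolin), a major RNA-binding protein of the nucleolus, was at 45.6, 95.1 and 58.8 RPKM across WT and 61.5, 73.3 and 41.3 across dnTCF4, a log2 fold change of -0.15 (SE 0.33, limma adjusted p = 0.85). Nolc1, a chaperone of snoRNPs, was at 59.0, 57.2 and 61.9 RPKM across WT and 54.0, 64.3 and 34.6 across dnTCF4, a log2 fold change of -0.26 (SE 0.25, limma adjusted p = 0.72). As with Nop2, only dnTCF4 replicate 3 stood apart, and without it the value for Nolc1 was -0.01. Gnl3 (nucleostemin), a GTP-binding protein of stem and proliferating cells, was at 61.9, 59.6 and 65.7 RPKM across WT and 58.8, 59.8 and 76.9 across dnTCF4, a log2 fold change of 0.05 (SE 0.18, limma adjusted p = 0.90). The RNA helicase Ddx21 and Mybbp1a had log2 fold changes of -0.04 and 0.04.

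**Figure D3:**
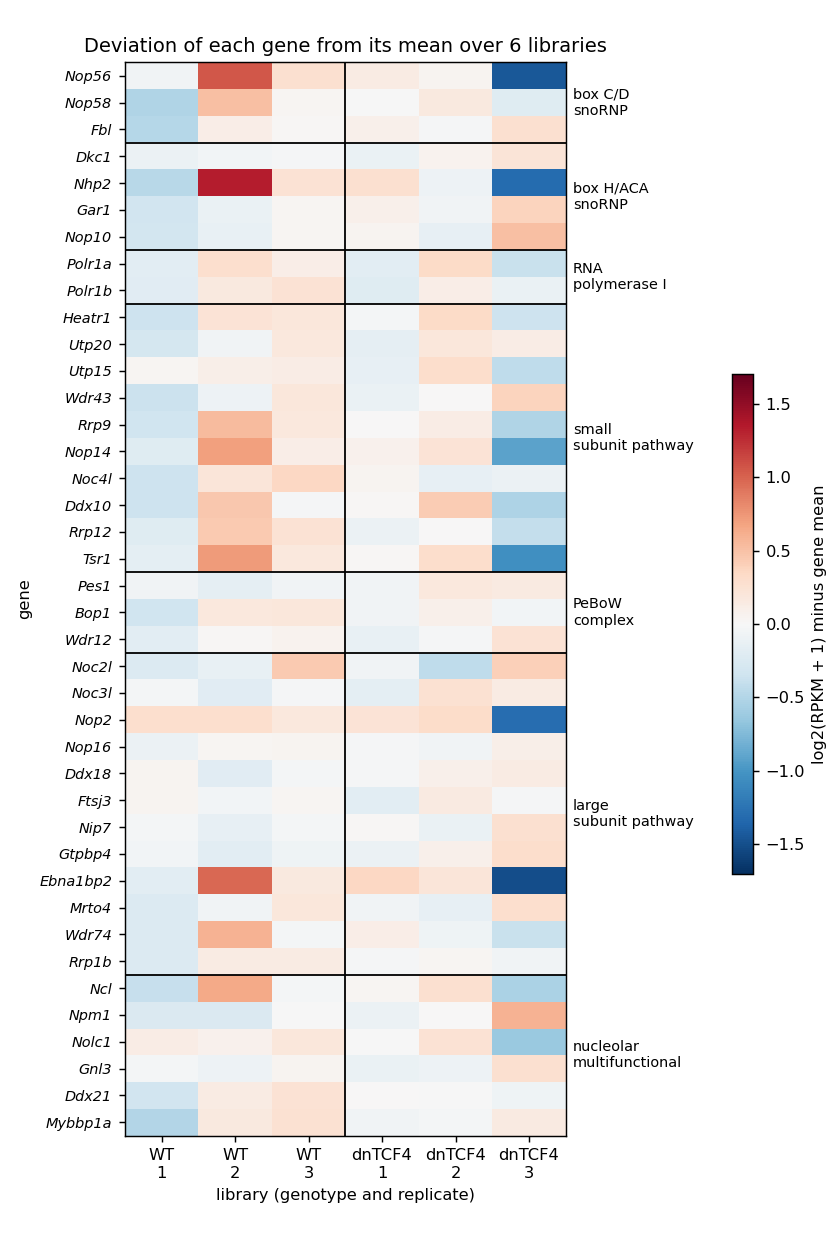
Deviation of log2(RPKM + 1) from the gene's mean over the 6 libraries (colour, red above and blue below) for the 40 genes (rows, by role) in 3 WT and 3 dnTCF4 libraries (columns). The deepest blue is Ebna1bp2 and Nop56 in dnTCF4 replicate 3 and the deepest red Nhp2 in WT replicate 2, while WT replicate 1 is lowest for 16 genes.

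The order of the libraries was uneven over the 40 genes. The highest library was dnTCF4 replicate 3 for 13 genes, WT replicate 2 for 11, dnTCF4 replicate 2 for 9 and WT replicate 3 for 7. The lowest was WT replicate 1 for 16 genes and dnTCF4 replicate 3 for 14. So dnTCF4 replicate 3 was often the extreme library, in both directions. Over all tested genes it was the highest library for 42.4% and the lowest for 24.3%. WT replicate 2 was highest and dnTCF4 replicate 3 lowest together for 10 of the 40 genes (25%), against 11.9% of all tested genes. These 10 were Nop56, Nhp2, Ebna1bp2, Tsr1, Nop14, Rrp9, Wdr74, Rrp12, Ncl and Ddx10, from 5 of the 7 role groups.

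Even and uneven genes stood side by side in the same complexes. The highest library held over 3 times the lowest for 6 genes (15%, against 17.6% of all tested genes) and under 1.5 times for 13 (32.5%, against 16.3%). The median of this range was 1.78 for the 40 genes and 1.96 for all tested genes. In recovered reads, Nhp2 held 2960 in dnTCF4 replicate 3 and 20250 in WT replicate 2, its lowest and highest libraries by RPKM. For Ebna1bp2 the same libraries held 2463 and 15732. How many captured RNA molecules these reads stand for is not known. Kit, the receptor used in the sort, had its lowest value in dnTCF4 replicate 3 (35.5 RPKM) and its highest in dnTCF4 replicate 2 (97.1), with 83.7 in WT replicate 2. Across the 40 genes the range had a Spearman correlation of 0.29 with the GC content of the longest coding transcript and -0.20 with mean RPKM, and across 9221 tested genes 0.22 and -0.18. These are descriptions over genes that share the same 6 libraries.

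**Figure D4:**
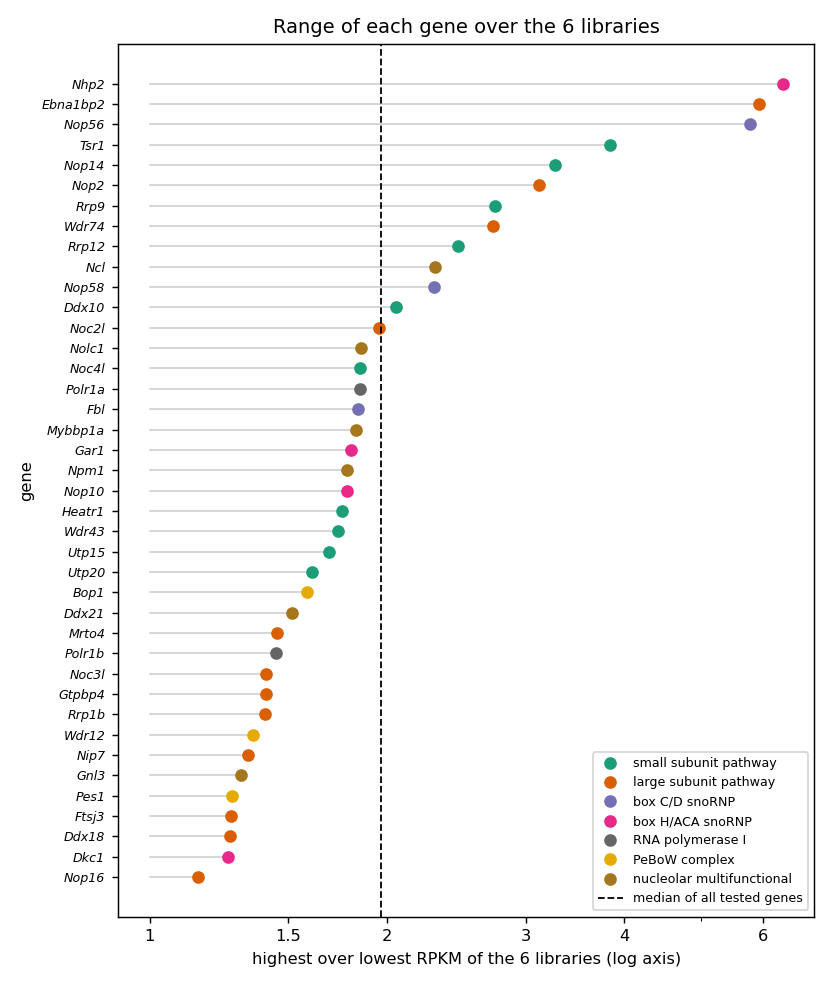
Highest over lowest RPKM among the 6 libraries (horizontal log axis) for each of the 40 genes (rows, sorted), coloured by role. Nhp2, Ebna1bp2 and Nop56 are at 6.36, 5.93 and 5.78, Nop16 is at 1.15, and the dashed line marks the median of all tested genes, 1.96.

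As a sum, the 40 genes held 2346, 2907 and 2779.8 RPKM across WT and 2679, 2690.3 and 3113 across dnTCF4, and much of it was Npm1 and Nop10. Without this pair the sums were 1297, 1772 and 1489.7 in WT and 1417, 1476 and 1246 in dnTCF4, which puts WT replicate 2 highest and dnTCF4 replicate 3 lowest.

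The rest of the pathway was read from a list of 116 other genes, of which 115 were in the table and 110 were tested. Limma called 0 of the 110 (1 at an unadjusted p under 0.05), and voom called 0 as well. Of the 110 genes, 66 were above 0 with a median log2 fold change of 0.07, against 30 and -0.14 after median ratio scaling. The groups did not overlap for 13 genes, all higher in dnTCF4, which is 11.8% of them against 15.4% of all tested genes. WT replicate 2 was highest and dnTCF4 replicate 3 lowest for 24 of the 110 (21.8%).

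Among 13 other genes of RNA polymerase I transcription, 9 were above 0. Znrd1, which encodes a small subunit of the polymerase, was at 135, 126 and 136 RPKM across WT and 175, 160.5 and 230.4 across dnTCF4, a log2 fold change of 0.49 (SE 0.19, limma adjusted p = 0.49). Ttf1, the transcription termination factor, was at 11.6, 9.88 and 11.3 RPKM across WT and 12.5, 14.5 and 15.2 across dnTCF4, a log2 fold change of 0.34 (SE 0.17, limma adjusted p = 0.59). Neither gene overlapped between the genotypes, and after median ratio scaling their log2 fold changes were 0.26 and 0.12.

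The other small subunit list had 23 of 42 tested genes above 0. Imp3, a protein of the U3 snoRNP, was at 7.43, 9.08 and 8.20 RPKM across WT and 11.0, 9.88 and 15.5 across dnTCF4, a log2 fold change of 0.49 (limma adjusted p = 0.53). The helicase Ddx47 was at 36.0, 31.2 and 35.0 RPKM across WT and 40.1, 43.9 and 44.2 across dnTCF4, a log2 fold change of 0.32 (limma adjusted p = 0.59). In the other large subunit list, with 24 of 39 above 0, Nop53 had a log2 fold change of 0.35 and the helicase Ddx31 of -0.41. The exosome trims precursor RNA, and 7 of its 10 tested genes were above 0, with Mphosph6 at 0.33 and Exosc1 at -0.44.

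Assembly of box C/D snoRNPs needs the ATPases Ruvbl1 and Ruvbl2. Like Nop56, Nhp2 and 11.9% of all tested genes, both were highest in WT replicate 2 and lowest in dnTCF4 replicate 3. Ruvbl2 was at 26.9, 87.5 and 46.8 RPKM across WT and 42.0, 37.9 and 13.9 across dnTCF4, a log2 fold change of -0.75 (SE 0.53, limma adjusted p = 0.69). Ruvbl1 was at 96.9, 205 and 125 RPKM across WT and 132, 118 and 37.0 across dnTCF4, a log2 fold change of -0.69 (SE 0.51, limma adjusted p = 0.69). Without dnTCF4 replicate 3 the values were -0.26 and -0.12.

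Promoters were read because the study blocks a DNA-binding factor. RefSeq windows of 300 bases (250 before and 50 after each start, GRCm38.p6) were matched for 36 of the 40 genes. The window held CTTTGAT or CTTTGAA, core words of TCF/LEF sites, on either strand in 2 of 36 genes (5.56%), against 9.88% of all 27025 genes with a window and 7.25% of the tested ones. These were Ncl, 166 bases before the start, and Noc4l, 72 bases before it, and both words lie where GENCODE annotates an exon. The log2 fold changes of these genes were -0.15 and -0.14. The E-box CACGTG, the word bound by MYC and related factors, was in a window of 6 of 36 genes (16.7%), against 8.09% of all genes and 12.2% of the tested ones: Nop2, Pes1, Tsr1, Utp20, Wdr43 and Mybbp1a. No window held both kinds of word, and a match is a description of letters only. The stretch shown is from Nop2, the 1 gene whose E-box lies before the start and outside any annotated exon, on chromosome 6 (chr6:125131748-125131882, plus strand), with the E-box in capitals.
Nop2: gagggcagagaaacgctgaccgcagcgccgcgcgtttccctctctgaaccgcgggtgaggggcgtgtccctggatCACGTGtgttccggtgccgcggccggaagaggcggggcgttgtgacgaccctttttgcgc

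The 6 genes with an E-box held both kinds of pattern, with Pes1 even across the libraries and Tsr1 and Nop2 low in dnTCF4 replicate 3. Their log2 fold changes ran from -0.50 (Nop2) to 0.18 (Pes1 and Wdr43).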

How the data were processed

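Per the labels' protocols, RNA of sorted cells was made into cDNA with SMART-Seq v4 and into libraries with Nextera XT. The authors deposited RPKM for 53677 symbols in 6 columns, matched to samples through their descriptions. Per the submitters' processing notes, which name STAR and featureCounts among the tools, the builds were GRCm38 and mm10. Not given in the sources used here are their roles, the annotation and how reads on several genes were counted.

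Limma 3.58.1 (R 4.3.3) was fitted to log2(RPKM + 1) of genes whose mean reached 1 RPKM (lmFit, eBayes with trend, two-sided, genotype the only term), adjusted over all 11326 tested genes. An exact permutation test of 3 against 3 cannot give a p below 0.1. Depth was recovered from RPKM steps: using exon lengths of GENCODE M21 genes, 96.2% to 96.4% of the genes checked were whole reads within a tolerance of 0.02, and for 34 of the 40 genes all 6 values were. Such counts cover counting error only, because amplified reads carry no molecular identifiers. Other steps used numpy 2.4.6 and pandas 2.3.3, and matplotlib 3.10.9 for plots, under Python 3.11.15.

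The 40 genes, their 7 role groups, the 116 other pathway genes and the markers were chosen with earlier results of these data known. Genes named with statistics are up to 4 of each role group and 2 of each other list with the smallest p. All 40 genes are accounted for. Those named for their range over libraries, and the ratios, were chosen after their values were seen. Same-numbered libraries deviated together from their group means (correlation across genes 0.17, 0.35 and 0.30 for numbers 1, 2 and 3), so a fit with the number as a block was also made. Alternatives were the pseudocount, filters, scaling, voom, the block and leaving out each library. Scaling was by median ratios, or to an equal summed RPKM after immunoglobulin genes were left out.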

Additional observations from a re-analysis of the deposited data

How the results depend on the processing

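The count of 0 among the 40 genes, and of 0 among the other pathway genes, held in all 13 alternatives. The lowest adjusted p of any of the 40 was 0.386, in the fit with the replicate block. In that fit 49 genes were called over all tested genes, 0 of the 40 and 0 of the other pathway genes. Each replicate number occurs in both genotypes, so the block cannot alter a log2 fold change or its sign, only its error. Over all tested genes, 34 calls became 6 without a filter, 18 after median ratio scaling, 0 with immunoglobulin genes left out (603 at an unadjusted p under 0.05), 14 with voom and 7 to 30 when 1 library was left out (7 without WT replicate 1, 11 without dnTCF4 replicate 3, 16 without dnTCF4 replicate 2, 18 without WT replicate 3, 22 without dnTCF4 replicate 1). The fit lacking immunoglobulin genes also rescaled each library to an equal sum of the remaining RPKM, so it is a change of scaling too. The count of the 40 above 0 was 4 by median ratios and 4 in the fit lacking immunoglobulin genes, with median log2 fold changes of -0.23 and -0.21. When 1 library was left out, the count was 12 (without WT replicate 1) to 25 (without WT replicate 2) and the median -0.19 to 0.044. It was 23 without WT replicate 3, so the majority below 0 turned into one above 0 without either of those WT libraries. For the other pathway genes those counts were 30 and 31 and the medians -0.14 and -0.11. Of the 24 genes given with statistics, signs turned, by median ratios and lacking immunoglobulin genes in turn, for Dkc1 (-0.13 and -0.10), Pes1 (-0.048 and -0.016), Wdr12 (-0.17 and -0.13), Gtpbp4 (-0.033 and -0.0022), Noc3l (-0.053 and -0.024) and Gnl3 (-0.18 and -0.15). By median ratios they also turned for Utp20, Wdr43, Nop16, Ddx18, Nip7, Mrto4 and Mybbp1a (-0.22 to -0.04). Among the same 24 genes, leaving out 1 library gave ranges across 0 for Nop58 (-0.29 to 0.22), Wdr12 (-0.046 to 0.14), Bop1 (-0.19 to 0.079), Nop2 (-0.78 to 0.027), Ncl (-0.38 to 0.14) and Gnl3 (-0.070 to 0.12). Of the other 16, Heatr1, Ddx10, Nop16, Mrto4 and Wdr74 are examples that also crossed 0. The causes were not tested. With 3 libraries a genotype the intervals of Nop56, Nhp2, Ebna1bp2, Tsr1, Nop14 and Nop2 reach past a 2-fold change of RPKM + 1, so a difference of that size is not excluded for them. Nor is a 2-fold change of RPKM excluded for genes at a few RPKM. Examples are Rrp9, Rrp12 and Wdr74, whose intervals reach down to -0.90, -0.84 and -0.82 on the RPKM + 1 scale.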
